A study of Arabidopsis thaliana with 6 samples.

Results

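The expansin superfamily of Arabidopsis thaliana was followed in imbibed seeds held in darkness. Its 36 loci were taken by their AGI identifiers: 26 alpha-expansins (EXPA), 6 beta-expansins (EXPB), 3 expansin-like A genes (EXLA) and 1 expansin-like B gene (EXLB1). Of these, 35 had a row among the 32884 rows of each deposited table, and the levels of the pseudogene EXPA19 (AT3G29365) were not analysed here. The compared groups were 3 libraries of hda15-1, which carries a mutant allele of HDA15, a gene for a histone deacetylase, and 3 libraries of wild type, both in the Col-0 ecotype. All seeds had been dried for about a month after harvest, took up water for 1 h, received 5 min of far-red light (3.82 µmol m-2 s-1) and then stood in the dark at 22 °C for 12 h. The samples hold 1 mutant allele and no complemented line, and nothing in the labels tells whether replicate libraries had seed lots of their own. The p-values therefore measure only the spread between these libraries, which may be technical.

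Expansins are small wall proteins that loosen the contact between cellulose and the surrounding glucans at acid pH without cutting the chains. Alpha-expansins are the members best known for cell growth, beta-expansins are known from grass pollen and vegetative tissues, and no wall-loosening activity is established for the expansin-like proteins. A seed germinates when the radicle elongates and the endosperm around it gives way, and both steps involve wall loosening. The factor PIF1 holds germination back in the dark, active phytochrome removes PIF1, and far-red light turns phytochrome inactive. The series title names HDA15 with PIF1 as a repressing module. The question of the comparison is which transcripts differ in dark-held seeds of the mutant.

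The upstream regions of 4 members are shown first. EXPA8 and EXPA1 were the members past the threshold, EXPA2 was the most abundant in hda15-1, and EXPA13 had overlapping groups. The 300 bases before the annotated start of each gene were read from the TAIR10.1 genome in the direction of transcription. They lie at chr2:16950706-16951005 on the minus strand, chr1:26141426-26141725 on the plus strand, chr5:1568394-1568693 on the plus strand and chr3:744316-744615 on the minus strand. Capitals mark matches, on either strand, to 5 motifs: the G-box CACGTG and the PBE-box CACATG, both known as binding sequences of PIF factors, the L1 box TAAATGCA of epidermal genes, the sequence TAACAAA of gibberellin-responsive promoters and the RY element CATGCATG of seed genes.
EXPA8: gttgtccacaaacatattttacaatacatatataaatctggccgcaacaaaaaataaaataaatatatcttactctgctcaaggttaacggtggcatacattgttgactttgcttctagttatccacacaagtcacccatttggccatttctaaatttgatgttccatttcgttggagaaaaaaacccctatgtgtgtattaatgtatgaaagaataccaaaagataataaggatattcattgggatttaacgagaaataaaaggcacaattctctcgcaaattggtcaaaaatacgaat
EXPA1: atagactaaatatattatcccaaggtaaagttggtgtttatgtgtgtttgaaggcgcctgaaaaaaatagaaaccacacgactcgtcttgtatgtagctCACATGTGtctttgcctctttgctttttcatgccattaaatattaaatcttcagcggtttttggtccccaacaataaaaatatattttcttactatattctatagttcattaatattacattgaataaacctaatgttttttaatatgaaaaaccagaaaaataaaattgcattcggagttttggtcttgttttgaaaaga
EXPA2: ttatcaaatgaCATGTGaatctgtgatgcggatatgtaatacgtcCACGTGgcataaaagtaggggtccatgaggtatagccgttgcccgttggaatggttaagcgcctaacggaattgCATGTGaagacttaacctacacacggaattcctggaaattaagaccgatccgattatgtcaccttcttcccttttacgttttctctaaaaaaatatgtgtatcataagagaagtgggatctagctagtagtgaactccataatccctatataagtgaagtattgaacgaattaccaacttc
EXPA13: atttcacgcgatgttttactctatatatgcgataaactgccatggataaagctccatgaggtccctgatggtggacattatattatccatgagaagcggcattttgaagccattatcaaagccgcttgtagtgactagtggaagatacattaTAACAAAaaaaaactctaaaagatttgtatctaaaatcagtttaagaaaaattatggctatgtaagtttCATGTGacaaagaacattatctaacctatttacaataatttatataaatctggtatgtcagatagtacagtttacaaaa

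EXPA1 carried a pair of overlapping PBE-boxes that begin 201 and 199 bases before its start, in the run CACATGTG. EXPA2 held a G-box 255 bases and PBE-boxes 289 and 181 bases before its start. EXPA13 held a PBE-box at 79 bases and the gibberellin sequence at 148 bases. EXPA8 held none of the 5 motifs in this window, which says only that these letters were not there. Among all 36 members, 10 had a PBE-box in the 300 bases, a share of 27.8%, and 13.1% of 27443 protein-coding genes had one. The 36 include the pseudogene EXPA19, whose PBE-box began 118 bases before its start. A G-box was found in 2 members, EXPA2 and EXPB2, a share of 5.56%, against 7.09% of protein-coding genes. Members are related by descent and some are tandem copies, so these shares are descriptions.

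In the 1000 bases before the start, which can run into a neighbouring gene, the L1 box was found in 11 of the 36 members, a share of 30.6%, against 5.93% of protein-coding genes. Its known role is as the binding sequence of the epidermal factors ATML1 and PDF2. The 11 matches are shown with 11 bases on either side, in the direction of the motif and with the motif in capitals, because the flanks show which members share more than the motif.
EXPA1: tatcgagaaaaTAAATGCAcattaaattta
EXPA5: aagttagaatcTAAATGCAatattttttgg
EXPA6: ccaaaaataatTAAATGCAgtagaagagtt
EXPA8: ccatcactacgTAAATGCAacagtgacaaa
EXPA9: caacgcgagtgTAAATGCAttttaagagaa
EXPA16: ctcgatttgtaTAAATGCAtcatgcatgac
EXPB2: aaaatcatcatTAAATGCAcgaaaaattaa
EXPB3: aacaaatacttTAAATGCAtttcaatataa
EXPB4: agtctaaaagaTAAATGCAttcaagattgt
EXPB6: agtctaaacgaTAAATGCAttcaagaaagg
EXLB1: attttcagtgtTAAATGCAtcttttatctt

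The EXPB4 and EXPB6 matches had nearly the same flanks, whereas those of the alpha-expansins differed. Only EXPA1, EXPA8 and EXPA9 of these 11 genes reached a mean of 1 FPKM in the seeds, and the other 8 matches were in members with little or no transcript. The share of members with the gibberellin sequence in this longer window was 55.6%, against 46.7% of protein-coding genes, and with the RY element 16.7% against 3.31%. For the PBE-box it was 55.6% against 37.7%, again with EXPA19 counted, and for the G-box 8.33% against 14.8%. In this window EXPA8 held PBE-boxes 446 and 388 bases before its start.

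Transcript levels are given in FPKM, fragments per kilobase of transcript scaled to the mapped fragments of the library, so genes of different length can be compared. The summed FPKM of a library lay between 879239 and 1159520, between 18902 and 19375 genes were above 0, and log2 levels of the libraries correlated across genes at r = 0.937 to 0.980. Depth is not given, but in a 1 kb transcript the smallest step, taken as 1 fragment, was worth 0.0811 to 0.111 FPKM. HDA15 was at 0.338, 0.651 and 0.417 FPKM in the hda15-1 libraries, against 16.1, 12.97 and 14.8 FPKM in wild type, so the labels fit the targeted gene. All 7 seed reserve and maturation markers were above 0 in every library. Root hair markers COBL9 and PRP3 and the pollen marker VGD1 were listed at 0 in all 6 libraries. The other root hair marker, RHD6, was at 0.705 to 1.68 FPKM, and the other pollen marker, LAT52-like, at 0.209 to 0.632 FPKM. The 3 leaf markers summed to between 445.8 and 619 FPKM in hda15-1 and between 352 and 456 FPKM in wild type. Nearly all of this was RBCS1A, as LHCB1.3 reached no more than 4.99 FPKM and CA1 no more than 0.330 FPKM. None of the marker genes tested passed the threshold.

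Part of the family had transcripts in the seeds. With 1 FPKM as the lowest mean allowed across libraries, 12 of the 35 members with a row could be tested: 10 alpha-expansins, EXPB1 and EXLA1. Another 8 members had a value above 0 in some library but never more than 0.296 FPKM, and 15 were listed at 0 throughout. Of all 32884 rows, 15045 reached that mean and 21626 were above 0 in some library. An exact 0 in such tables can also be a failed estimate. The libraries of hda15-1 had 8 members each at 10 FPKM or more, and those of wild type had 6, 4 and 4.

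Expansin transcripts as a whole were more abundant in hda15-1 seeds. The summed FPKM of the 35 genes was 496, 375 and 463 in the hda15-1 libraries, against 182, 83.9 and 96.9 in wild type. The mean was 444.5 ± 62.6 FPKM in hda15-1 and 121 ± 53.1 FPKM in wild type (SD, n = 3 each), a ratio of 3.68. Every hda15-1 library was above every wild-type library. In whole seeds, more cells of a type and more RNA per cell cannot be told apart. The sum is a description over members and has no test.

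The subfamilies did not share this difference equally. Alpha-expansins summed to 409.5 ± 64.1 FPKM in hda15-1 and 91.9 ± 52.0 FPKM in wild type (SD, n = 3 each), a ratio of 4.46. Without EXPA2 the sum was 220.4 ± 81.6 FPKM in hda15-1 and 53.3 ± 17.3 FPKM in wild type, so other members carried much of it. Beta-expansins summed to 1.96 ± 0.906 FPKM in hda15-1 and 1.92 ± 1.29 FPKM in wild type, a ratio of 1.02. The expansin-like A genes summed to 33.0 ± 11.8 FPKM in hda15-1 and 27.1 ± 4.12 FPKM in wild type, a ratio of 1.22. EXLB1 was listed at 0 in 5 libraries and at 0.111 FPKM in hda15-1 3. The difference between subfamilies was not tested.

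**Figure D1:**
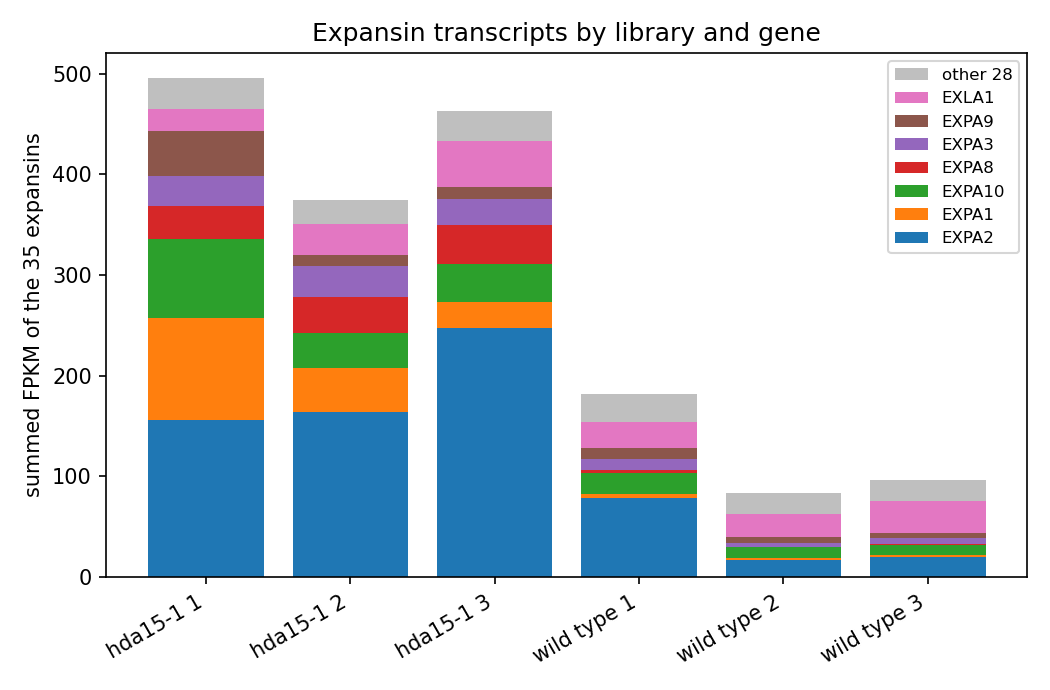
Summed FPKM of the 35 expansin genes in each library (bars start at 0), with 7 genes in colour and the other 28 in grey. The hda15-1 bars reach 496, 375 and 463 FPKM and the wild-type bars 182, 83.9 and 96.9 FPKM, with EXPA2 the largest segment in all but wild type 2 and wild type 3, where EXLA1 is larger.

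The make-up of the family also differed in order. EXPA2 made up 42.9% of the summed FPKM in hda15-1 and 28.1% in wild type, as means over 3 libraries, but the groups overlapped, with 43.3% in wild type 1. EXLA1 made up 7.51% in hda15-1 and 24.8% in wild type. EXPA13 made up 2.26% in hda15-1 and 10.7% in wild type. These are shares of a larger sum in hda15-1, and in FPKM the groups overlapped for both genes. Mean levels were 32.8 FPKM in hda15-1 and 26.9 FPKM in wild type for EXLA1, and 9.81 and 11.7 FPKM for EXPA13. EXPA1 stood 2nd among the 12 members by mean level in hda15-1 and 9th in wild type, and EXPA8 stood 4th in hda15-1 and 11th in wild type. By mean level EXPA2 was 1st, EXPA10 3rd, EXPA15 8th and EXPA4 12th in both genotypes, but the place of EXPA2 in wild type rests on wild type 1. Many neighbours in the order overlapped, such as EXPA1 at 57.2 ± 39.1 and EXPA10 at 50.1 ± 24.3 FPKM in hda15-1 (SD, n = 3).

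Of the 12 members tested, 2 were higher in hda15-1 at an adjusted p under 0.05 in limma and none was lower. Over all 15045 genes tested, 0.199% were higher and 0.0199% lower, which is 0.219% in either direction. At an unadjusted p under 0.05, 8 of the 12 were higher and 0 lower, and among all genes tested 464 were higher and 180 lower. In 8 of the 12 every hda15-1 library was above every wild-type library, which held for 5.78% of all genes tested, and in none was every hda15-1 library below, which held for 3.43% (either direction: 9.21%). A log2 difference of at least 1 was reached by 7 of the 12 members and by 1.09% of all genes tested. The median log2 difference was 1.15 for the 12 members and 0.02 for all genes tested, on the log2(FPKM + 1) scale. EXPA4 reached the minimum mean only through its hda15-1 libraries. Among the 11 members with a wild-type mean of at least 1 FPKM, 7 had groups apart with hda15-1 higher and 2 passed the threshold. The matching shares of all genes under this wild-type filter were not computed.

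**Figure D2:**
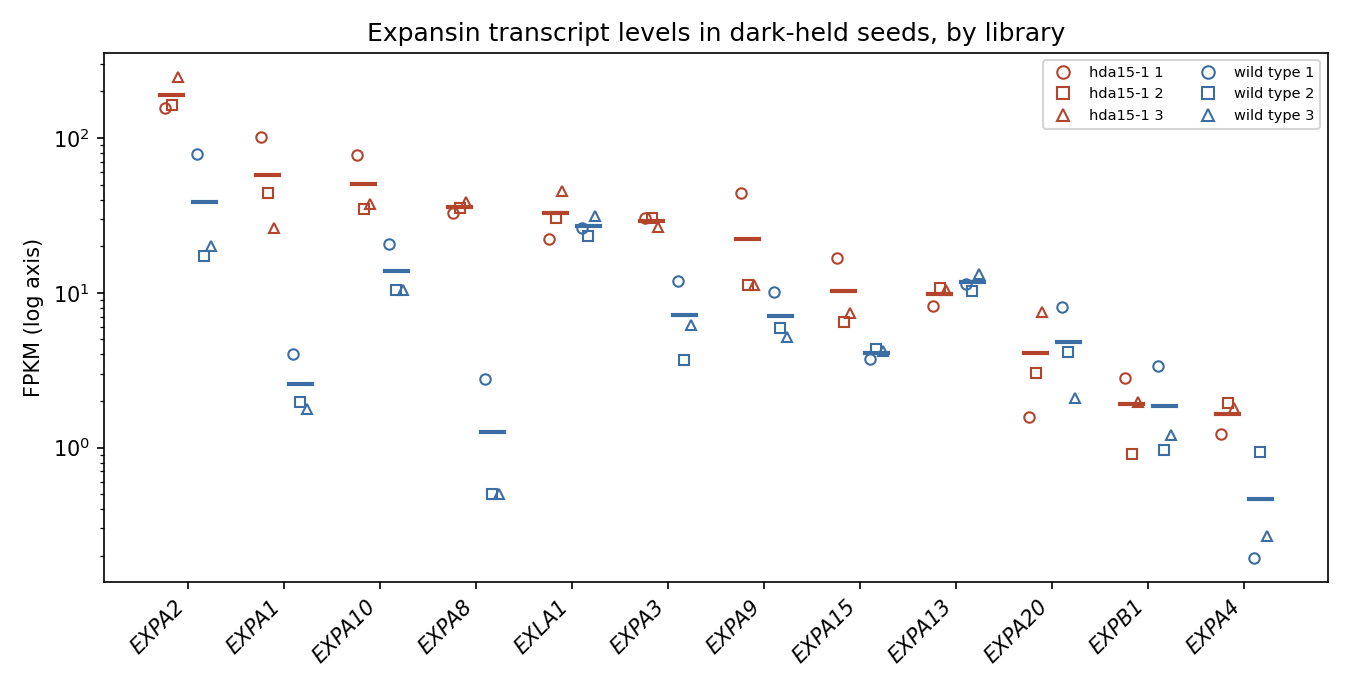
FPKM of the 12 expansins tested in each library on a log axis, hda15-1 left of wild type for each gene, with symbols for the library number and a line for the mean of 3. The groups lie apart for EXPA2, EXPA1, EXPA10, EXPA8, EXPA3, EXPA9, EXPA15 and EXPA4 and overlap for EXLA1, EXPA13, EXPA20 and EXPB1.

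EXPA8 (AT2G40610, chromosome 2 from 16948791 to 16950705, minus strand) rose, with a larger log2 difference than the other members in the fit to all 6 libraries. Without hda15-1 3 the log2 difference was 4.10 for EXPA8 and 4.30 for EXPA1. EXPA8 was at 32.8, 35.2 and 38.7 FPKM in hda15-1, against 2.77, 0.499 and 0.499 FPKM in wild type. The hda15-1 values lay close together, and wild type 1 was above the other wild-type libraries. By the size of the smallest step, the 2 lower wild-type values rest on about 8.2 and 7.8 fragments, and the hda15-1 values on 508.4, 467.0 and 461.1. The log2 difference was 4.16 ± 0.35 (SE; limma, adjusted p = 4.27e-03), and the gene passed in all 15 alternatives. The gene stood at the 89.2 to 89.7 percentile of all rows in hda15-1 libraries and at the 51.0 to 62.4 percentile in wild type.

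EXPA1 (AT1G69530, chromosome 1 from 26141726 to 26143538, plus strand), an alpha-expansin also known from guard cells, rose as well. It was at 101, 44.3 and 26.2 FPKM in hda15-1, against 4.04, 1.96 and 1.76 FPKM in wild type. The groups did not overlap, although the hda15-1 libraries differed among themselves more than for EXPA8. The log2 difference was 3.86 ± 0.46 (SE; limma, adjusted p = 0.0196). The call was lost without hda15-1 2 (0.105), without wild type 2 (0.1197) and without wild type 3 (0.0796), all adjusted p-values in limma. It was also lost with libraries scaled to the same sum (0.0611) and with no filter on the mean (0.0569).

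EXPA2 (AT5G05290, chromosome 5 from 1568694 to 1569915, plus strand), known from the endosperm of germinating seeds, was the most abundant expansin in every hda15-1 library and in wild type 1, while EXLA1 was above it in wild type 2 and wild type 3. It was at 156, 164 and 247 FPKM in hda15-1, against 78.6, 17.2 and 19.9 FPKM in wild type. The groups did not overlap, and wild type 1 was far above the other wild-type libraries. The log2 difference was 2.58 ± 0.52 (SE; limma, adjusted p = 0.223), and 3.25 without wild type 1 (limma, adjusted p = 8.94e-03). Its last 61 bases overlap AT5G05300 on the other strand, which reached no more than 1.01 FPKM. The 4 endosperm markers summed to between 7291 and 11286 FPKM in hda15-1 and between 6651 and 10855 FPKM in wild type, which overlap. Nearly all of this was EPR1. Of the other endosperm markers, NCED6 was at 13.5, 6.90 and 4.43 FPKM in hda15-1, against 8.55, 6.68 and 7.29 FPKM in wild type. NAC25, a factor known to act on EXPA2, was listed at 0 in all 6 libraries, and NAC1L reached no more than 0.173 FPKM. The part of such markers in the EXPA2 difference was not tested.

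EXPA3 (AT2G37640) was at 30.5, 30.6 and 26.6 FPKM in hda15-1, against 11.8, 3.69 and 6.17 FPKM in wild type. Its log2 difference was 1.997 ± 0.33 (SE; limma, adjusted p = 0.113), and the adjusted p without wild type 1 was 0.0175 (limma). EXPA10 (AT1G26770), known from the growth of leaves and petioles, was at 78.1, 34.9 and 37.3 FPKM in hda15-1, against 20.6, 10.5 and 10.4 FPKM in wild type. In both genes the groups lay apart, and wild type 1 was again the highest wild-type library. The log2 difference of EXPA10 was 1.76 ± 0.37 (SE; limma, adjusted p = 0.239). Without both libraries numbered 1, these 2 genes and EXPA2 passed beside EXPA8 and EXPA1, so that 5 members were higher, with adjusted p-values in limma of 0.0119 for EXPA3, 9.99e-03 for EXPA10 and 3.33e-03 for EXPA2. In those 4 libraries 0.488% of 14946 genes were higher and 0.0803% lower.

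EXPA9 (AT5G02260) was at 44.1, 11.2 and 11.3 FPKM in hda15-1, against 10.14, 5.89 and 5.19 FPKM in wild type. EXPA15 (AT2G03090) was at 16.8, 6.50 and 7.40 FPKM in hda15-1, against 3.76, 4.36 and 4.19 FPKM in wild type. In both, hda15-1 1 was well above the other hda15-1 libraries, as it was for EXPA1 and EXPA10. The log2 difference of EXPA9 was 1.28 ± 0.50 (SE), and 0.65 without hda15-1 1. That of EXPA15 was 1.03 ± 0.32 (SE) and 0.64 without that library. The adjusted p-values in limma were 1.000 for EXPA9 and 0.792 for EXPA15. The library hda15-1 1 was the highest of its group for 5 of the 12 members tested, hda15-1 2 for 3 and hda15-1 3 for 4. Wild type 1 was the highest wild-type library for 8 of the 12. How often each library was the highest of its group over all genes tested was not computed.

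EXPA4 (AT2G39700) had low values, at 1.23, 1.94 and 1.80 FPKM in hda15-1, against 0.194, 0.939 and 0.270 FPKM in wild type. These rest on about 21.5, 29.2 and 24.3 fragments in hda15-1 and 2.9, 17.4 and 4.8 in wild type. The groups did not overlap, and the adjusted p was 0.672 in limma.

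**Figure D3:**
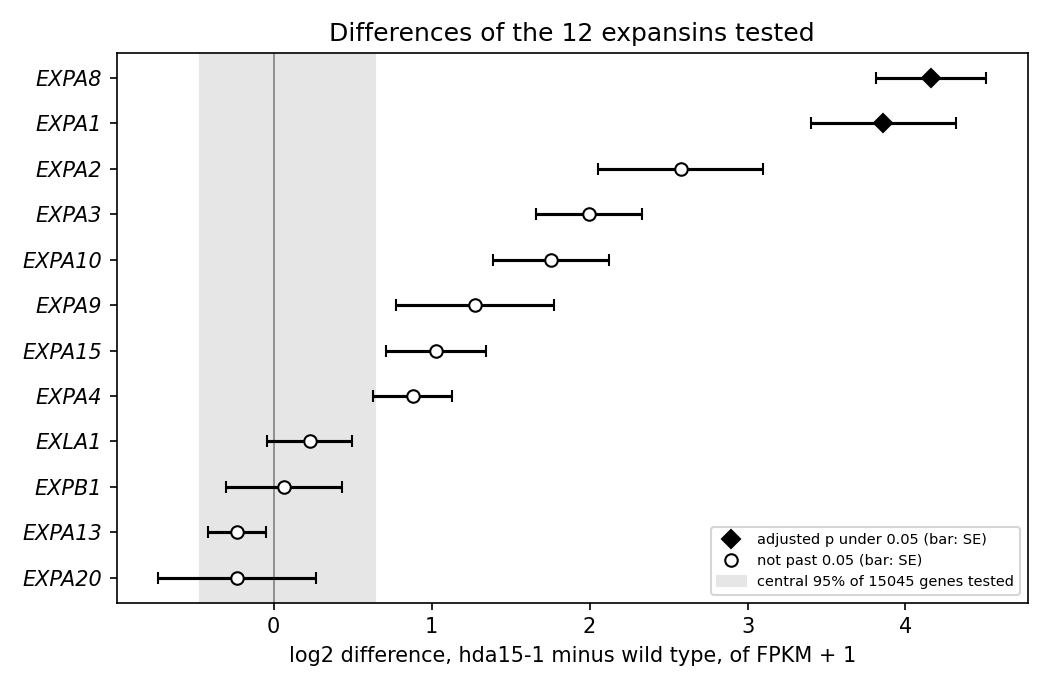
Log2 difference (hda15-1 minus wild type, of FPKM + 1) of the 12 expansins tested, with SE as bars and filled diamonds for an adjusted p under 0.05 in limma. The grey band, from -0.46 to 0.64, holds the central 95% of all 15045 genes tested, and 8 alpha-expansins lie to its right, between 0.88 for EXPA4 and 4.16 for EXPA8.

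The other 4 members tested had overlapping groups. EXPA13 (AT3G03220, chromosome 3 from 742354 to 744315, minus strand) was at 8.16, 10.8 and 10.5 FPKM in hda15-1, against 11.4, 10.2 and 13.3 FPKM in wild type. Its log2 difference was -0.23, with a 95% interval from -0.65 to 0.19. EXLA1 (AT3G45970), the 2nd most abundant member in wild type, was at 22.3, 30.6 and 45.6 FPKM in hda15-1, against 26.4, 23.2 and 31.3 FPKM in wild type, with a log2 difference of 0.23 and an interval from -0.39 to 0.84. It overlaps AT3G45980 on the other strand by 22 bases. These intervals do not reach the estimates of EXPA8, EXPA1, EXPA2, EXPA3 and EXPA10, but smaller differences in either direction remain possible.

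EXPB1 (AT2G20750), the only beta-expansin with a mean over 1 FPKM, was at 2.83, 0.909 and 1.97 FPKM in hda15-1, against 3.38, 0.965 and 1.21 FPKM in wild type. In both genotypes the library numbered 1 was the highest. The log2 difference was 0.06, with a 95% interval from -0.78 to 0.91. EXPA20 (AT4G38210) was at 1.58, 3.05 and 7.52 FPKM in hda15-1, against 8.10, 4.14 and 2.08 FPKM in wild type, with an interval from -1.38 to 0.92. Over 1061 bases the gene overlaps the long non-coding gene AT4G38215 on the other strand. AT4G38215 was at 6.97, 12.2 and 16.7 FPKM in hda15-1, against 20.3, 9.30 and 10.5 FPKM in wild type, with its lowest value in hda15-1 1 and its highest in wild type 1, as in EXPA20. Whether counting used strand is not given in the sources used here, so reads of the 2 genes cannot be told apart. All 4 genes had adjusted p-values of 1.000 in limma.

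The tandem clusters were almost silent but for EXLA1. On chromosome 5, from 15726243 to 15740605, 6 alpha-expansin genes follow each other on the minus strand in the order EXPA21, EXPA22, EXPA23, EXPA26, EXPA25 and EXPA24, with no other annotated gene lying wholly between them. EXPA22 to EXPA26 were listed at 0 in all 6 libraries. EXPA21 was at 0, 0.180 and 0.296 FPKM in hda15-1, against 0.185, 0.225 and 0.158 FPKM in wild type, which is about 3.0 fragments at most. It overlaps AT5G39250, on the other strand, by 964 bases, and that gene was at 6.91, 3.997 and 5.14 FPKM in hda15-1 and at 5.20, 4.71 and 5.25 FPKM in wild type. The coding sequences of EXPA22 and EXPA26 were identical at 97.7% of positions and those of EXPA23 and EXPA25 at 97.1%. Between 48.1% and 64.7% of the exonic 31-base words of these 4 genes occur a second time in the genome, so a read could not always be placed in one of them, and a value of 0 for each is uncertain.

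On chromosome 1, from 24427266 to 24430670, EXPB2 and EXPB6 lie side by side on the plus strand, and both were listed at 0 in all 6 libraries. On chromosome 3, from 16892702 to 16897308, EXLA3 was listed at 0 in all 6 libraries while its neighbour EXLA1 was at 22.3 to 45.6 FPKM. Their coding sequences were identical at 86.0% of positions, and 4.08% of the 31-base words of EXLA1 occur elsewhere in the genome. Among the 12 members tested this was the largest share, and the other 11 were under 1%. This count does not cover overlaps with genes on the other strand, such as that of EXPA20. The closest pair among the 12, EXPA3 and EXPA9, had coding sequences identical at 74.7% of positions.

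The remaining members were at or near 0. EXPA7 and EXPA18, known from root hairs, were listed at 0 in all 6 libraries, as were EXPA12, EXPA16, EXPA17, EXPB4 and EXPB5. For EXPB5, 18.7% of the exonic 31-base words occur a second time in the genome, so its value of 0 is less certain. EXPA5 ranged from 0 to 0.239 FPKM, EXPA14 from 0 to 0.275, EXLA2 from 0 to 0.233 and EXPB3 from 0 to 0.196 FPKM. EXPA6 was above 0 in hda15-1 3 alone, at 0.0811 FPKM, and EXPA11 in hda15-1 2 alone, at 0.0879 FPKM. Fitted with no filter on the mean, these 6, EXPA21 and EXLB1 had log2 differences between -0.06 and 0.08 and adjusted p-values of 1.000 in limma. At such levels a difference was not detectable.

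Partners of expansins in wall loosening moved in part. Of 11 plasma membrane proton pump genes, whose products acidify the wall, 6 were tested, 1 rose and none fell in limma (unadjusted p under 0.05: 2 higher, 0 lower). Among all genes tested, 0.199% were higher at the adjusted threshold and 3.08% at the unadjusted one. The called pump was AHA2, at 32.4, 33.8 and 40.8 FPKM in hda15-1, against 13.6, 12.3 and 11.8 FPKM in wild type (adjusted p = 0.0196, limma), and the call was lost without hda15-1 2, hda15-1 3, wild type 2 or wild type 3 (adjusted p up to 0.157). AHA3 was at 15.6, 16.4 and 15.5 FPKM in hda15-1, against 6.39, 7.94 and 6.35 FPKM in wild type (adjusted p = 0.0607, limma). The median log2 difference of the 6 pumps was -0.01, beside 0.02 for all genes tested. Of the 5 pumps not tested, AHA7 and AHA8 had every hda15-1 library below every wild-type library. AHA7 was at 0.264, 0.321 and 0.124 FPKM in hda15-1, against 0.651, 0.457 and 0.396 FPKM in wild type. AHA8 was at 0.444, 0.555 and 0.474 FPKM in hda15-1, against 0.730, 1.06 and 0.604 FPKM in wild type. AHA6, AHA9 and AHA10 were at or near 0 with overlapping groups.

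Of 33 xyloglucan endotransglucosylase/hydrolase genes, whose products cut wall xyloglucan or cut and rejoin it, 10 were tested, 1 rose and none fell in limma (unadjusted p under 0.05: 5 higher, 0 lower), beside 0.199% and 3.08% higher among all genes tested. The called gene was XTH31, at 6.52, 9.18 and 10.6 FPKM in hda15-1, against 1.10, 0.817 and 1.69 FPKM in wild type (adjusted p = 0.0142, limma), and the call was lost without hda15-1 2, hda15-1 3, wild type 1 or wild type 2 (adjusted p up to 0.0949). The median log2 difference of the 10 was 0.61. XTH9 was at 2.51, 2.15 and 1.97 FPKM in hda15-1, against 0.250, 0.255 and 0.679 FPKM in wild type (adjusted p = 0.116, limma). XTH19 was at 21.9, 20.1 and 27.7 FPKM in hda15-1, against 9.85, 2.62 and 3.81 FPKM in wild type (adjusted p = 0.150, limma). The highest wild-type library was not the same across the 10.

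Of 11 regulators of expansins and of the gibberellin pathway, 7 were tested, 1 rose and none fell in limma (unadjusted p under 0.05: 2 higher, 0 lower), beside the same 0.199% and 3.08% higher among all genes tested. GASA6, a gibberellin-responsive peptide gene placed upstream of EXPA1 in germination, was at 116, 108 and 163 FPKM in hda15-1, against 14.7, 4.55 and 2.70 FPKM in wild type (adjusted p = 0.0177, limma). The call was lost without hda15-1 2, hda15-1 3 or wild type 2 (limma, adjusted p up to 0.0974) and with no filter on the mean (0.0510). RGL2, which encodes a DELLA repressor of germination, was at 109, 104 and 103 FPKM in hda15-1, against 80.7, 69.5 and 81.2 FPKM in wild type (adjusted p = 0.993, limma). The median log2 difference of the 7 was 0.19. Of the 4 not tested, GA3OX1 was at 1.95, 1.85 and 0.906 FPKM in hda15-1, against 0.227, 0.178 and 0.0596 FPKM in wild type. GA3OX2 was at 0.640, 0.928 and 0.546 FPKM in hda15-1 and at 0 in every wild-type library. NAC25 and NAC1L, the other members not tested, were at or near 0.

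**Figure D4:**
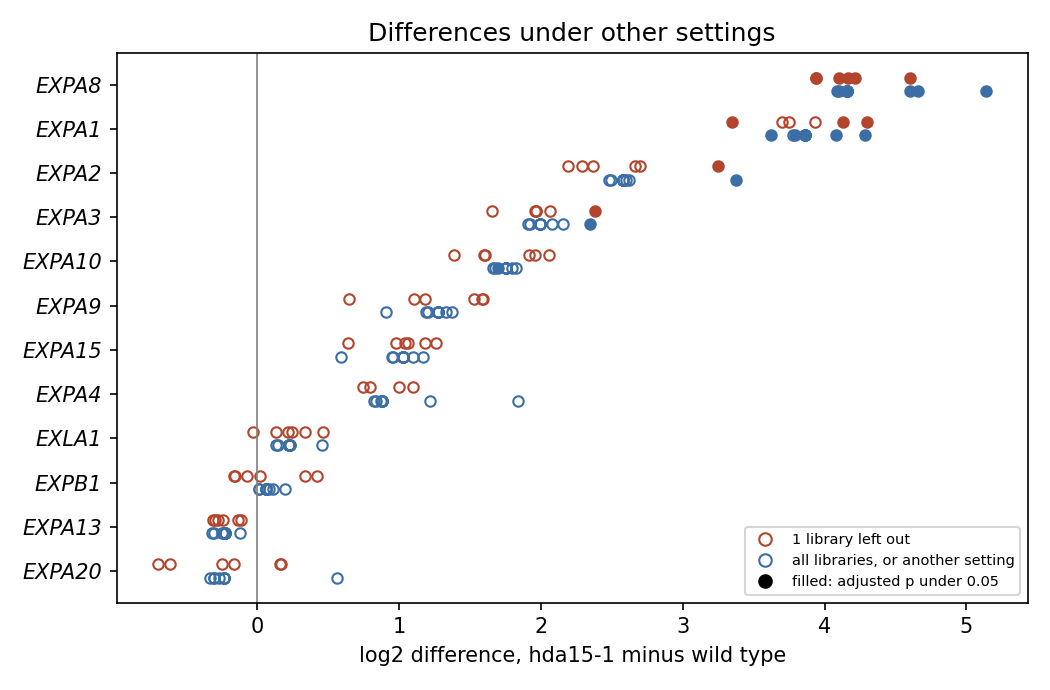
Log2 difference (hda15-1 minus wild type) of each expansin tested under the reported and other settings, with fits that leave out 1 library in red and the others in blue, and filled points where the adjusted p was under 0.05 in limma. EXPA8 is filled in every fit and ranges from 3.94 to 5.14, and EXPA20, EXPB1 and EXLA1 fall on both sides of 0.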

How the data were processed

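Messenger RNA libraries of whole seeds were sequenced, 3 from hda15-1 and 3 from wild type. Each library came with its own table of gene-level FPKM made by the authors, per the file headers. Bowtie 0.12.2, Cufflinks, Cuffdiff and TAIR10 are listed, without settings, per the submitters' processing notes. Annotation release and strand use: not given in the sources used here. Read totals are unknown, and no count test was run.

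The value tested was log2(FPKM + 1), for genes whose mean across libraries reached 1 FPKM. The model, fitted in limma 3.58.1 (R 4.3.3), had genotype alone and an empirical Bayes trend. All tests are two-sided, with the Benjamini-Hochberg adjustment across the 15045 genes and a threshold of 0.05. A difference is hda15-1 minus wild type, and this scale understates the change of low genes. The smallest p that exact permutation of 6 libraries could give for 1 gene is 0.1. The fit was also run on simulated independent normal values with their spread set by the fitted trend. That run checks the calculation only, as it holds no outlying library and no spread particular to a gene. Intervals are limma's, at 95%.

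The members and lists were chosen with earlier results of these data known, so no test of a list is given. Every member is named or counted. From the other lists, genes past the threshold or with the smallest p are named, and in the pump and regulator lists also the members not tested. Positions, exon lengths and sequences came from the TAIR10.1 annotation and genome, joined by locus, since the tables hold no coordinates. All 36 member loci were found there, 34 under the same symbol. The fragment numbers are estimates from the smallest step of FPKM times length. Alternatives covered pseudocount, filter, scaling, variance trend, a replicate block and libraries left out.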

Additional observations from a re-analysis of the deposited data

How the results depend on the processing

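Of the 15 alternatives, EXPA8 passed in all 15 and EXPA1 in 10. The number of expansins higher was 2 as reported, 1 with no filter on the mean, 1 with libraries scaled to the same sum, 5 without both libraries numbered 1, and between 1 and 4 with 1 library left out, the 4 being without wild type 1. The number lower was 0 in each. The median log2 difference of the members tested was 1.15, and moved to 1.60 with a pseudocount of 0.1 FPKM, to 1.76 when the minimum mean was 5 FPKM, and to 0.073 with no filter, where 20 members entered, 8 of them near 0. With 1 library left out it lay between 0.83 and 1.59. Among all genes, 30 were higher as reported, 13 when the minimum mean was 5 FPKM, which tests fewer genes, 18 with libraries scaled to the same sum, and 8 to 31 with 1 library left out. Without both libraries numbered 1, 73 were higher and 12 lower, and with 1 library left out 3 to 5 were lower. EXPA20 turned to 0.56 without both libraries numbered 1 and ranged from -0.70 to 0.17 with 1 library left out. EXPB1 ranged from -0.16 to 0.42 and EXLA1 from -0.032 to 0.47 in those fits. Where no cause is given here, the cause was not tested. With a replicate block, 13 genes were higher, the 2 expansins still passed, and AHA2 did not (limma, adjusted p = 0.132). The correlation of deviations between same-numbered libraries was -0.08, -0.11 and -0.16, and no library correlated best with its own number. With so few libraries per group, such correlations cannot tell whether same-numbered libraries were handled together, and that was not tested. The 23 members with a row that were under the minimum mean were not tested in the reported fit, and the part of depth in their low values was not tested.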
